A study of Mus musculus with 27 samples.

Results

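The genes described here are 10 markers of brain endothelium, the cells that line the vessels of the brain and form the blood-brain barrier: Ly6c1, Sox17, Flt1, Pecam1, Cldn5, Kdr, Cdh5, Tek, Slco1a4 and Abcb1a. They were chosen by gene name as markers of this cell type, with earlier results of these data known. They make up 10 of the 51826 features in the gene table. All 10 passed the filter on low counts and are among the 19969 genes tested. The tissue was hippocampus from mice of the outbred ICR strain, read in 4 groups that crossed surgery with treatment. OVX Xmo mice were ovariectomized (OVX) and given xanthohumol (Xmo), a prenylated flavonoid of hops, with n = 4 mRNA libraries. OVX saline mice were ovariectomized and given saline (n = 4), sham Xmo mice had a sham operation and Xmo (n = 4), and sham saline mice had a sham operation and saline (n = 3). A separate set of 12 miRNA libraries had n = 3 per group. The labels give no age, dose, time after surgery or pooling, and do not say that replicates are separate animals, so p-values measure only the spread between these libraries, which may be technical.

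In brain, endothelial cells differ from those of most organs in that tight junctions seal the gaps between them and in that vesicle traffic across them is low. Supply and clearance therefore run through transporters in their membranes. Vascular endothelial growth factor (VEGF) and angiopoietin receptors govern vessel growth and stability, and transcription factors of the SOX, ETS and forkhead families set endothelial and arterial or venous identity. In a bulk hippocampus library these cells give a small part of the RNA, and fewer endothelial cells cannot be told apart from less endothelial RNA per cell.

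mRNA libraries held 20848661 to 39140593 counts and miRNA libraries 9660869 to 10962296 reads. Levels are given as CPM, a gene's counts relative to the library's total counts, scaled by trimmed mean of M-values (TMM) factors. Sham saline 2 and 3 lay outside the other groups in composition. Genes of the mitochondrial genome took 19.0%, 34.1% and 24.2% of counts in sham saline 1, 2 and 3, and 11.9% to 19.2% in the other 12 libraries. Summed CPM of 10 neutrophil and monocyte markers was 3.24 to 4.67 in OVX Xmo, 1.59 to 2.23 in OVX saline, 1.32 to 7.30 in sham Xmo, and 7.26, 53.6 and 11.2 in sham saline 1, 2 and 3. With the mitochondrial genes left out of the fit, the number of the 10 genes past the test was the same, with 3 in OVX saline, 1 in sham Xmo and 0 in OVX Xmo, each against sham saline. TMM factors already allow for a large share of counts held by few genes. This fit therefore cannot say whether the composition of sham saline 2 and 3 matters. The part of neutrophils and monocytes in the differences from sham saline was not tested.

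RefSeq start-site windows on GRCm38.p6, running from 250 bases before to 50 bases after a start, were found for 7 of the 10 genes. The Abcb1a window lies 92986 bases from the start of that gene in the gene table, and the others lie within 167 bases of theirs. Those of Flt1 and Ly6c1, which passed a test below, and of Kdr, the other VEGF receptor among the 10, are shown 5′ to 3′ on the gene's strand. Flt1 is from chr5:147725962-147726261 (minus strand), Kdr from chr5:75978406-75978705 (minus strand) and Ly6c1 from chr15:75048788-75049087 (minus strand). Capitals mark matches, on either strand, to 5 short motifs. The ETS factor core was searched as GGAAGT. The SOX factor core was searched as ACAAT. The TATA element was searched as TATAAA. The GC box was searched as GGGCGG, with its other strand. The cyclic AMP response element was searched as TGACGTCA. No motifs overlap in these windows.
Flt1: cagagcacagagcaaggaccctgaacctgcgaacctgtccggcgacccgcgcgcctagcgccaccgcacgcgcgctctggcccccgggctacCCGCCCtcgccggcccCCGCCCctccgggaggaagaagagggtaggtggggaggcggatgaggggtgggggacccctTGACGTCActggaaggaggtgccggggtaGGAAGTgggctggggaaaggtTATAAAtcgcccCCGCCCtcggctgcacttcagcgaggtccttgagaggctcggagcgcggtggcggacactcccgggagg
Kdr: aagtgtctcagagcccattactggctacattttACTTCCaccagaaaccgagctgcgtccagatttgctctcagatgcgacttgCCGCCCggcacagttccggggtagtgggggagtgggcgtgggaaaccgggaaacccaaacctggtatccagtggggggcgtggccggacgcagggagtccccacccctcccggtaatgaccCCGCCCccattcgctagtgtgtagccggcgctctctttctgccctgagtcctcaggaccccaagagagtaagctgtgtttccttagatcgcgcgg
Ly6c1: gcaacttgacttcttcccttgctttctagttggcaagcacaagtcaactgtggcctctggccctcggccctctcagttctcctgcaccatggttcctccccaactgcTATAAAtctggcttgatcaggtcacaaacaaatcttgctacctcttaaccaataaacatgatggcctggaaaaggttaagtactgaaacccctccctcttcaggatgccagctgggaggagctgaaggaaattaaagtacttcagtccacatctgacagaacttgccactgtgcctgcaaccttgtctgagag
The Flt1 window held 1 ETS core, 1 TATA element 31 bases before the start, 1 cyclic AMP response element and 3 GC boxes. The Kdr window held 1 ETS core and 2 GC boxes, and the Ly6c1 window held 1 TATA element 143 bases before the start. Among 32817 windows of the same length in the table, 23.8% held the ETS core, 31.0% the SOX core, 13.6% the TATA element, 35.6% the GC box and 1.79% the cyclic AMP response element. Over the 7 genes with a window, counting a further window of Ly6c1 that is not shown, 3 held the ETS core, 2 the SOX core, 2 the TATA element, 3 the GC box and 1 the cyclic AMP response element. A match describes the letters only.

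The levels of the 10 genes, compared with each other per transcript length as deposited TPM, which divides by length and by the library's sum, spanned a wide range. Over all 15 libraries Ly6c1, a lipid-anchored surface protein of the Ly6 family, averaged 65.8 TPM (39.0 to 119.8). Slco1a4, an organic anion uptake transporter of the barrier, averaged 34.6 TPM (23.0 to 51.3). Cldn5, the main claudin of brain endothelial tight junctions, averaged 13.6 TPM and Abcb1a, the P-glycoprotein efflux pump, 13.1 TPM. Flt1 (VEGF receptor 1) averaged 10.6 TPM, Pecam1 (CD31, an adhesion molecule of cell contacts) 10.5 TPM and Tek (the angiopoietin receptor Tie2) 6.92 TPM. Sox17, an arterial transcription factor, averaged 4.77 TPM, Cdh5 (VE-cadherin of adherens junctions) 4.11 TPM and Kdr (VEGF receptor 2) 2.51 TPM. Only Slco1a4 and Cldn5 were neighbours in this order whose ranges over the 15 libraries did not overlap. Within single groups more neighbours were apart, such as Cdh5 and Kdr in OVX Xmo and in OVX saline.

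By group mean CPM, 8 of the 10 genes were highest in sham saline and 6 were lowest in OVX saline. The summed CPM of the 10 genes was 208 to 221 in OVX Xmo, 187 to 218 in OVX saline, 212 to 247 in sham Xmo and 249 to 358 in sham saline. On this scale the lowest sham saline library was above the highest of the other 12, although by little. Summed TPM was 143 to 189.9 in OVX Xmo, 135 to 168 in OVX saline, 159 to 219.7 in sham Xmo and 119 to 199.9 in sham saline, so on that scale the groups overlapped.

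**Figure D1:**
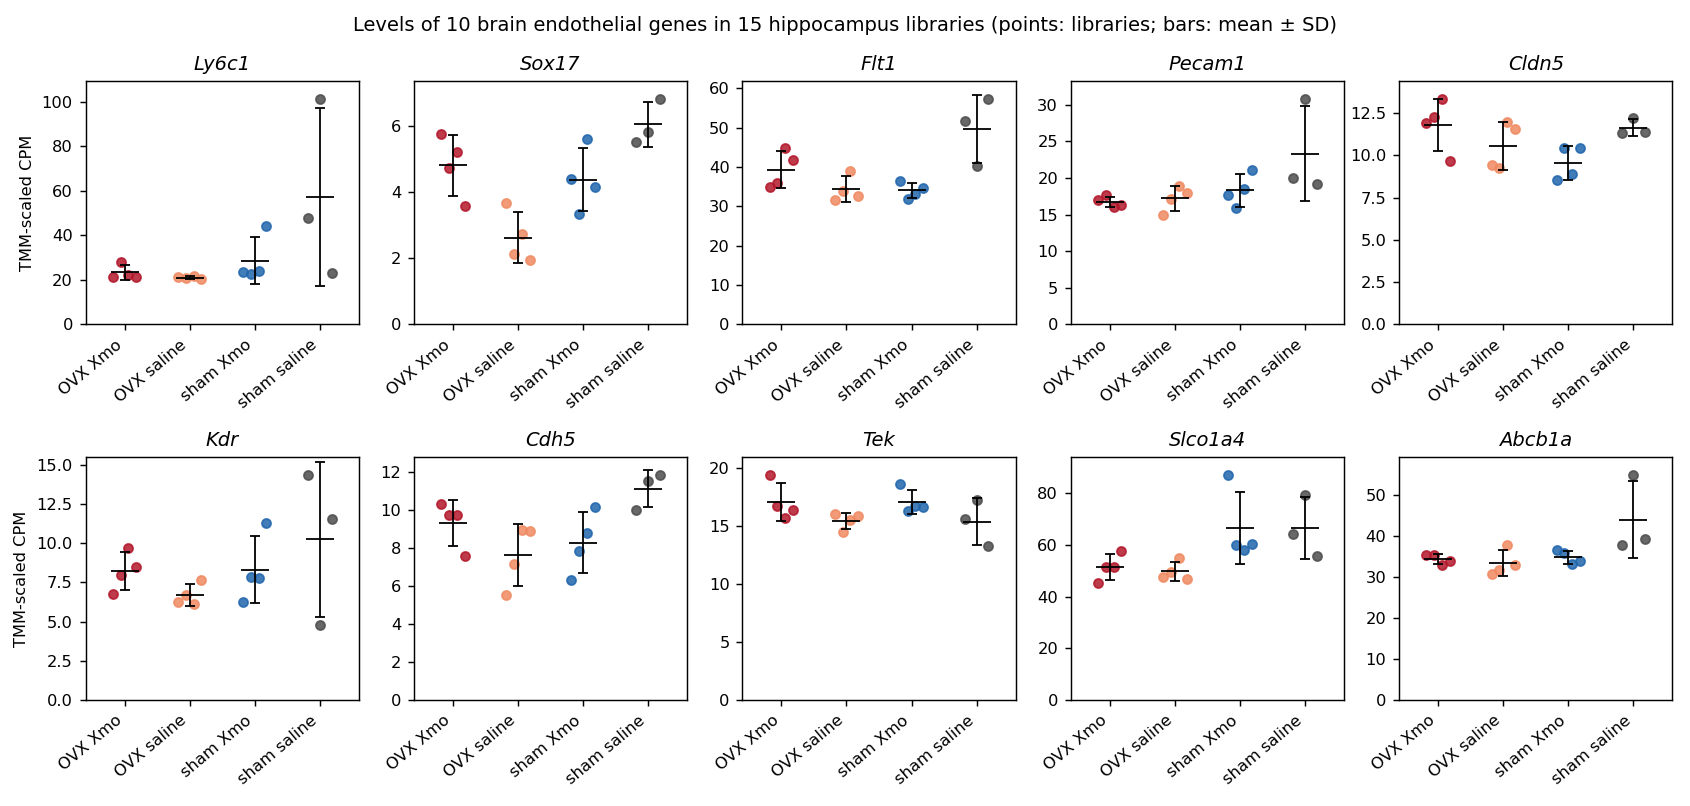
TMM-scaled CPM (y axis, from 0) of each gene in OVX Xmo, OVX saline, sham Xmo (4 libraries each) and sham saline (3 libraries). Points are libraries, and bars give the mean and SD. Sox17 is lowest in OVX saline (1.95 to 3.66 CPM) and highest in sham saline (5.52 to 6.81 CPM). The wide sham saline bar of Ly6c1 comes from values of 47.7, 101.1 and 22.9 CPM.

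Ovariectomy without Xmo was read by setting OVX saline against sham saline. Sox17, Flt1 and Ly6c1 fell at an adjusted p under 0.05 in edgeR's quasi-likelihood test, and none of the 10 rose. In this comparison 6.24% of the genes tested passed in either direction and 2.59% passed as lower. The other 7 genes did not pass, although 9 of the 10 had a lower mean, with a median log2 fold change of -0.49 against 0.005 over all genes tested. In 6 of the 10 (Ly6c1, Sox17, Flt1, Pecam1, Cdh5 and Slco1a4) every OVX saline library was below every sham saline library, as in 11.6% of all genes tested. Because the genes were chosen with earlier results known, these counts describe the 10 genes and do not test them as a set.

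Sox17 had 3.66, 2.14, 2.73 and 1.95 CPM in OVX saline, against 5.52, 5.81 and 6.81 CPM in sham saline. All 4 OVX saline libraries were below all 3 sham saline libraries. The fold change was -1.20 on the log2 scale (SE 0.23), with an adjusted p of 0.0165 from edgeR. This call held in 20 of 21 alternative settings and was lost without sham saline 3 (-1.10, adjusted p = 0.0614). Sox17 lies at chr1:4490931-4497354 on the minus strand, where the opposite-strand feature Gm37587 covers 12.5% of its span. Gm37587 averaged 0.282 CPM, and no source used here says whether reads were counted by strand.

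Flt1, a VEGF receptor with weak signalling that also exists as a secreted trap for VEGF, had 31.7, 33.9, 39.0 and 32.5 CPM in OVX saline. It had 51.7, 40.2 and 57.2 CPM in sham saline, so the groups did not overlap. The log2 fold change was -0.54 (SE 0.12), with an adjusted p of 0.0265 from edgeR. Flt1 lies at chr5:147561604-147726011 on the minus strand. It was past the test in 15 of 21 settings. The call was lost without OVX saline 1, 2 or 4 (-0.52 to -0.55, adjusted p = 0.0567 to 0.0614) and without sham saline 1 or 3 (-0.51 and -0.42, adjusted p = 0.0584 and 0.103). It was also lost with the replicate block (-0.53, adjusted p = 0.0514).

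Ly6c1 had 21.4, 20.7, 21.8 and 20.2 CPM in OVX saline, against 47.7, 101.1 and 22.9 CPM in sham saline. The OVX saline libraries lay close together, and sham saline 3 was only just above them. The log2 fold change was -1.44 (SE 0.35), with an adjusted p of 0.0300 from edgeR. Without sham saline 2, which was also highest in the neutrophil and monocyte markers, it was -0.76 with an adjusted p of 0.161. Leaving out any 1 of the 4 OVX saline libraries also ended the call (adjusted p = 0.0603 to 0.0732) at nearly the same fold change (-1.44 to -1.47), as did a fit of only the groups compared (adjusted p = 0.0590). The replicate block ended the call too (-1.37, adjusted p = 0.0665). Ly6c1 lies at chr15:75044018-75048830 on the minus strand. Its close relative Ly6c2 is among the neutrophil and monocyte markers, and the part of such cells in the Ly6c1 level was not tested.

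**Figure D2:**
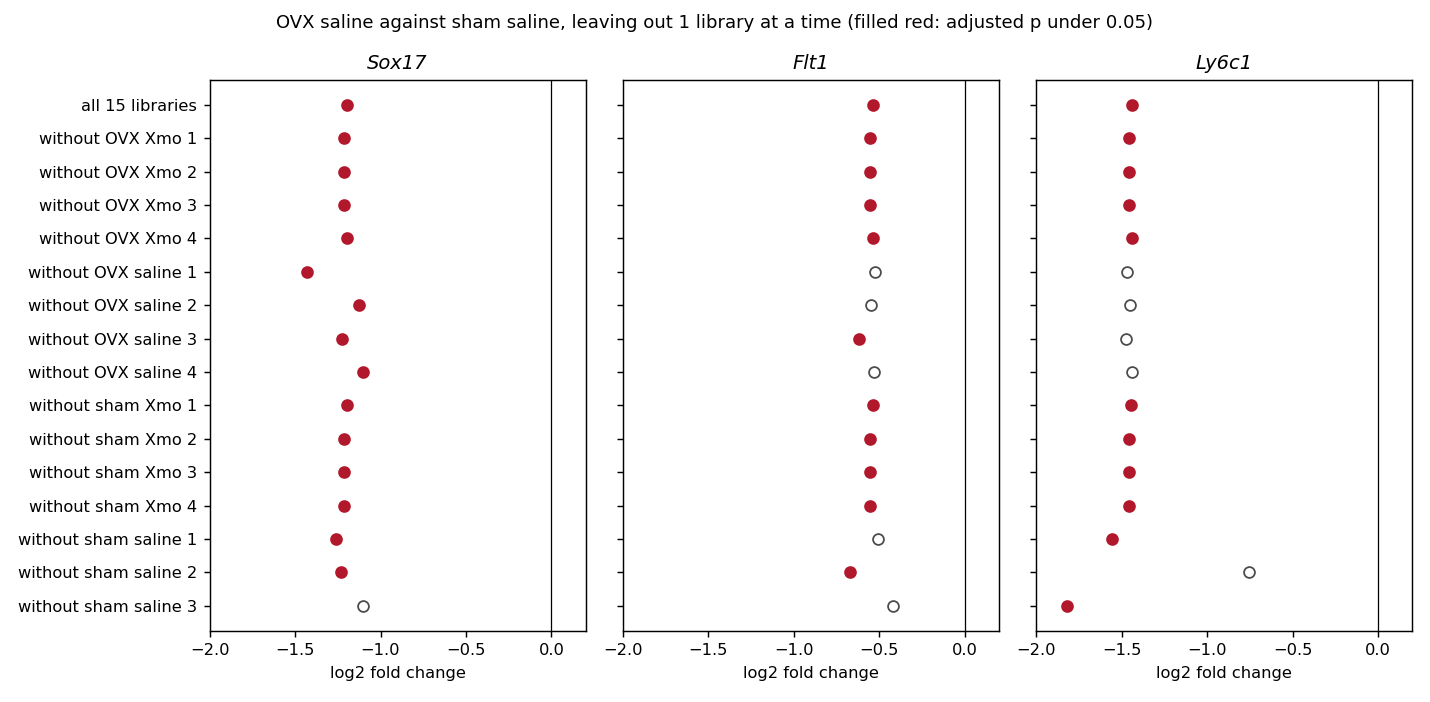
Log2 fold changes (x axis) of Sox17, Flt1 and Ly6c1 in OVX saline against sham saline with all 15 libraries (top) and without each library in turn (rows). Filled red points have an adjusted p under 0.05. Ly6c1 moves to -0.76 without sham saline 2, while Sox17 stays between -1.43 and -1.10.

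Related genes of the same families, which may share reads with the members, were read beside them. Ly6c2, a neighbour and close copy of Ly6c1, averaged 1.18 ± 0.21 CPM in OVX saline (SD, n = 4) and 2.72 ± 1.77 CPM in sham saline (SD, n = 3) and did not pass (log2 -1.18, adjusted p = 0.0506, edgeR). With the counts of Ly6c1 and Ly6c2 summed, the log2 fold change was -1.43 (adjusted p = 0.0297). Ly6a, Abcb1b and Slco1a5 did not pass either, and Slco1a1 and Slco1a6 were under the filter.

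The 7 other members had these levels. Cdh5 had 5.51, 7.17, 8.98 and 8.90 CPM in OVX saline, against 10.02, 11.5 and 11.9 CPM in sham saline (log2 -0.55, SE 0.19, adjusted p = 0.0903, edgeR). Pecam1 had 14.98, 17.1, 18.9 and 17.9 CPM in OVX saline, against 19.98, 30.8 and 19.1 CPM in sham saline (log2 -0.44, adjusted p = 0.0943). The groups did not overlap for these junction and contact genes. Neither passed in edgeR, and both passed in DESeq2 (adjusted p = 0.0409 for Cdh5 and 0.0490 for Pecam1). DESeq2 called more genes than edgeR over all in this comparison. The opposite-strand feature Gm45664, which overlaps Cdh5, had 0 counts.

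Abcb1a had 30.8, 31.7, 37.8 and 32.8 CPM in OVX saline, against 37.8, 54.9 and 39.2 CPM in sham saline (log2 -0.40, SE 0.12, adjusted p = 0.0550, edgeR). Slco1a4 had 47.6, 49.7, 54.9 and 46.9 CPM in OVX saline, against 64.3, 79.3 and 55.7 CPM in sham saline (log2 -0.42, adjusted p = 0.0982). Of these transporters, Abcb1a touched the range of sham saline and Slco1a4 did not. Abcb1a passed in DESeq2 (adjusted p = 0.0185). Gm42684 and Gm42686, which overlap Abcb1a, averaged 0.00547 and 0.454 CPM.

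Kdr had 6.24, 6.69, 6.12 and 7.64 CPM in OVX saline, against 14.4, 4.80 and 11.5 CPM in sham saline (log2 -0.62, SE 0.28, adjusted p = 0.184, edgeR). Here sham saline 2 was the lowest of all 15 libraries, the opposite of its place for Ly6c1, Pecam1 and Abcb1a. Without it Kdr passed, with a log2 fold change of -0.96 and an adjusted p of 0.0462. Cldn5 averaged 10.6 ± 1.41 CPM in OVX saline (SD, n = 4) and 11.6 ± 0.487 CPM in sham saline (SD, n = 3), and Tek averaged 15.5 ± 0.690 CPM in OVX saline and 15.4 ± 2.03 CPM in sham saline. Their log2 fold changes of -0.14 (SE 0.14) and 0.01 (SE 0.11) were about as large as the SE or smaller.

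These directions are relative to the bulk of the transcriptome and depend on the scale. The median over all tested genes of the log2 ratio of OVX saline to sham saline was 0.005 in TMM-scaled CPM, 0.33 in CPM without TMM scaling and 0.61 in deposited TPM. Before that shift is taken off, 9 of the 10 genes had a lower mean in OVX saline in TMM-scaled CPM, 8 in unscaled CPM and 3 in TPM, where Flt1 turned to 0.04. Relative to the median gene, 9 of 10 were lower on all 3 scales, with Tek as the exception. Flt1 was then at -0.54, -0.56 and -0.56, Sox17 at -1.21, -1.21 and -0.71, and Ly6c1 at -1.45, -1.39 and -1.29 in TMM-scaled CPM, unscaled CPM and TPM.

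**Figure D3:**
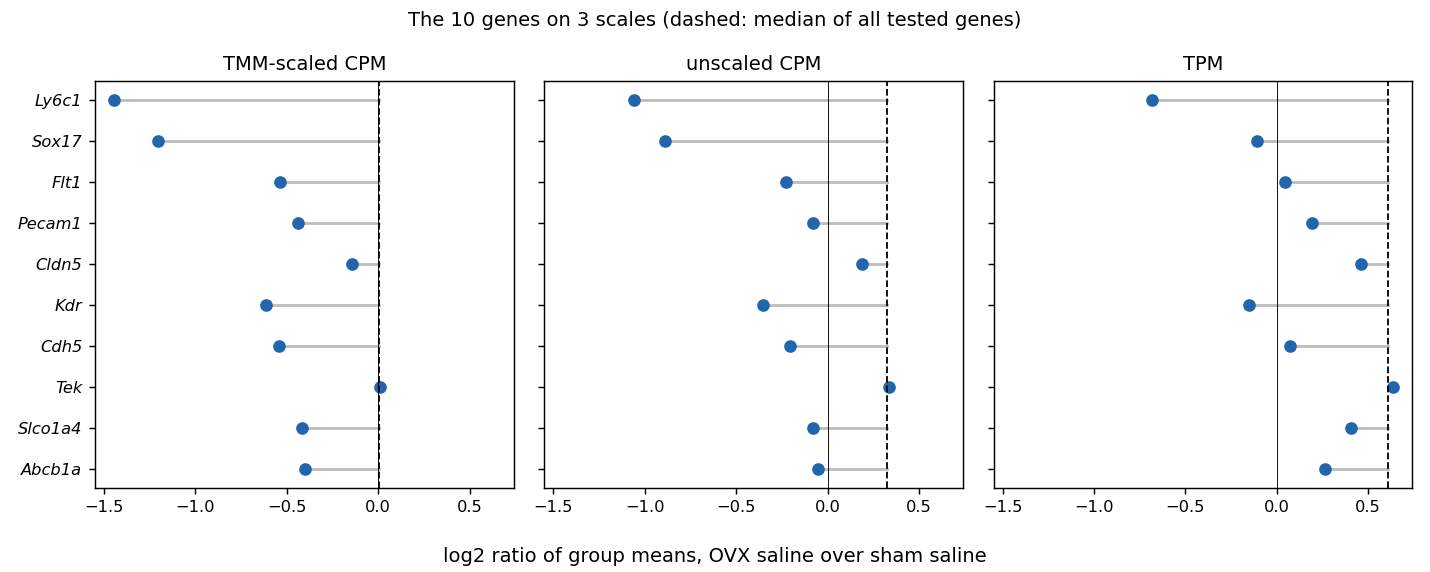
Log2 ratio of group means, OVX saline over sham saline (x axis), of the 10 genes in TMM-scaled CPM, unscaled CPM and TPM. The dashed line is the median of all tested genes, at 0.005, 0.33 and 0.61, and grey lines join each gene to it. Tek sits at the dashed line on each scale, and the other 9 genes lie left of it.

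Lists of further genes with roles in vessels, not limited to genes of endothelium, were read in the same fit. Summed CPM in OVX saline was 1056 to 1157 for 20 transporters and 629 to 751 for 7 capillary genes. That of the 10 members was 187 to 218. The share of endothelium in these list values was not tested. Of 21 transcription factors listed for endothelium, 2 fell, 20 had a lower mean and the median log2 fold change was -0.48. Fli1, an ETS factor of blood and endothelial cells, averaged 3.95 ± 0.722 CPM in OVX saline (SD, n = 4) and 6.77 ± 2.33 CPM in sham saline (SD, n = 3), a log2 fold change of -0.78 (adjusted p = 0.0433, edgeR). Foxf2, a forkhead factor of brain vessels, averaged 1.51 ± 0.335 CPM in OVX saline and 2.76 ± 0.227 CPM in sham saline, a log2 fold change of -0.86 (adjusted p = 0.0487). Both calls were near the threshold, held in 8 and 7 of 21 settings, and without sham saline 2 none of the 21 passed. The same count was 0 or 1 without OVX Xmo 2 or 3, any OVX saline library, sham Xmo 2 or 3, or sham saline 3.

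Of 23 tested genes of the vessel lumen and of leukocyte adhesion, 4 fell and 1 rose. Vwf, the blood-clotting von Willebrand factor, had 6.24, 6.62, 12.2 and 11.8 CPM in OVX saline, against 21.4, 41.5 and 22.1 CPM in sham saline (log2 -1.62, SE 0.29, adjusted p = 0.0142, edgeR). Clec14a, a C-type lectin of endothelium, had 3.61, 3.50, 4.20 and 3.78 CPM in OVX saline, against 7.89, 11.3 and 7.76 CPM in sham saline (log2 -1.25, SE 0.18, adjusted p = 0.00876). For both genes the groups were well apart, and Clec14a passed in all 21 settings. Cd93, a related lectin, fell too (-0.91, adjusted p = 0.0166), as did Podxl, a sialomucin of the lumen (-0.82, adjusted p = 0.0428), which is named after its value was seen. Mcam, the adhesion molecule CD146, rose by 0.54 on the log2 scale, with 22.8, 25.4, 23.9 and 21.8 CPM in OVX saline, against 19.1, 13.3 and 16.1 CPM in sham saline. Without sham saline 2 the list had 1 call, with Vwf at an adjusted p of 0.0538, Cd93 at 0.0631 and Mcam at 0.0815. Without OVX saline 2, OVX saline 3 or sham saline 3 it had 3, and Mcam was lost in each of these (adjusted p = 0.0515 to 0.0687). Mcam was also lost with only the groups compared (adjusted p = 0.0506), and Cd93 with the replicate block (adjusted p = 0.0516).

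Of 9 genes listed for the venous end of the vessel tree, 4 fell, all 9 were lower in mean and the median log2 fold change was -0.83. Which cells of the bulk tissue these values come from was not tested. Nr2f2 (COUP-TFII), the factor of venous identity, had 7.79, 5.06, 10.6 and 11.02 CPM in OVX saline, against 25.4, 20.7 and 19.99 CPM in sham saline (log2 -1.36, SE 0.21, adjusted p = 0.00945, edgeR). Its groups were well apart, and it passed in all 21 settings. Lcn2, a siderophore-binding protein of inflamed endothelium and of neutrophils, had 0.276, 0, 0.325 and 0 CPM in OVX saline, against 4.65, 98.6 and 8.42 CPM in sham saline, and fell (adjusted p = 0.00876). Vwf was the third, and Tmsb10, an actin-binding thymosin, the fourth (-0.63, adjusted p = 0.0354). Tmsb10 was lost without OVX saline 1, 3 or 4 or any sham saline library (adjusted p = 0.0515 to 0.0948). It was also lost without the filter, with only the groups compared and with the replicate block (adjusted p = 0.0517 to 0.0840). Without sham saline 2, 2 of the 9 passed. Of 11 arterial genes, Bmx, a cytosolic tyrosine kinase, fell by 0.98 on the log2 scale (adjusted p = 0.0183) and the list median was 0.005. It was lost without OVX saline 2 or 4 or sham saline 2 or 3, and with the replicate block (adjusted p = 0.0507 to 0.0622).

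The barrier and signalling lists gave few calls. Among all 19969 genes tested in this comparison, 4927 had an unadjusted p under 0.05 in edgeR, which is the background for the counts below. Of 15 junction genes, Jam3 rose by 0.42 on the log2 scale (adjusted p = 0.0437, edgeR) and held in 5 of 21 settings. It was kept only without OVX Xmo 4, sham Xmo 1 or sham saline 1 among the 15 libraries. None of 20 transporters passed in edgeR, where 4 had an unadjusted p under 0.05, and 2 passed in DESeq2. The transporters with the smallest p were Abcc4, an efflux pump of organic anions, at -0.58 (adjusted p = 0.0558), and Mfsd2a, the carrier of lysophosphatidylcholine with omega-3 fatty acids, at 0.45 (adjusted p = 0.0776). None of 25 VEGF, angiopoietin and Notch genes passed in edgeR (5 at an unadjusted p under 0.05, 1 in DESeq2), with the phosphatase Ptprb at -0.43 and the receptor Flt4 at -0.68 (adjusted p = 0.0708 and 0.0846). None of 15 genes of Wnt barrier signalling passed either (0 at an unadjusted p under 0.05, 0 in DESeq2). Caveolae and capillary lists (6 and 7 genes) had 0 calls in edgeR, with 3 and 5 at an unadjusted p under 0.05 and 2 each in DESeq2. Beside these, 1 of 10 pericyte markers fell, 6 had a lower and 4 a higher mean, and the median log2 fold change was -0.08. That marker, Rgs5, fell by 0.58 on the log2 scale (adjusted p = 0.0244), with 120.3 to 129.6 CPM in OVX saline against 158.9 to 242.2 CPM in sham saline. Rgs5 was lost without OVX saline 2, 3 or 4 or sham saline 2 or 3 (adjusted p = 0.05004 to 0.0873). It was also lost with only the groups compared (adjusted p = 0.0522) and with the replicate block (adjusted p = 0.0657). Summed CPM of the 10 pericyte markers, a large part of it from Rgs5, was 233.8 to 266.6 in OVX saline and 283.2 to 367.9 in sham saline. That of 7 microglia markers was 265.9 to 300.8 in OVX saline and 225.7 to 246.3 in sham saline. Of the 7 microglia markers 2 rose, and of 8 astrocyte markers 1 rose. Of 9 neuron markers none passed in edgeR (5 at an unadjusted p under 0.05), 7 had a lower mean and the median log2 fold change was -0.29. Of 6 tested neutrophil and monocyte markers, 4 fell, led by the granulocyte protein gene S100a9 (adjusted p = 0.00945), and Retnlg, Ly6g, Mmp8 and Plac8 were at 0 in all OVX saline libraries. Of 10 choroid plexus markers none passed in edgeR (1 at an unadjusted p under 0.05), all 10 had a lower mean in OVX saline and the median log2 fold change was -1.41. Their summed CPM was 81.6 to 471 in OVX saline and 205 to 1271 in sham saline. The part of these cell types in the endothelial changes was not tested.

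**Figure D4:**
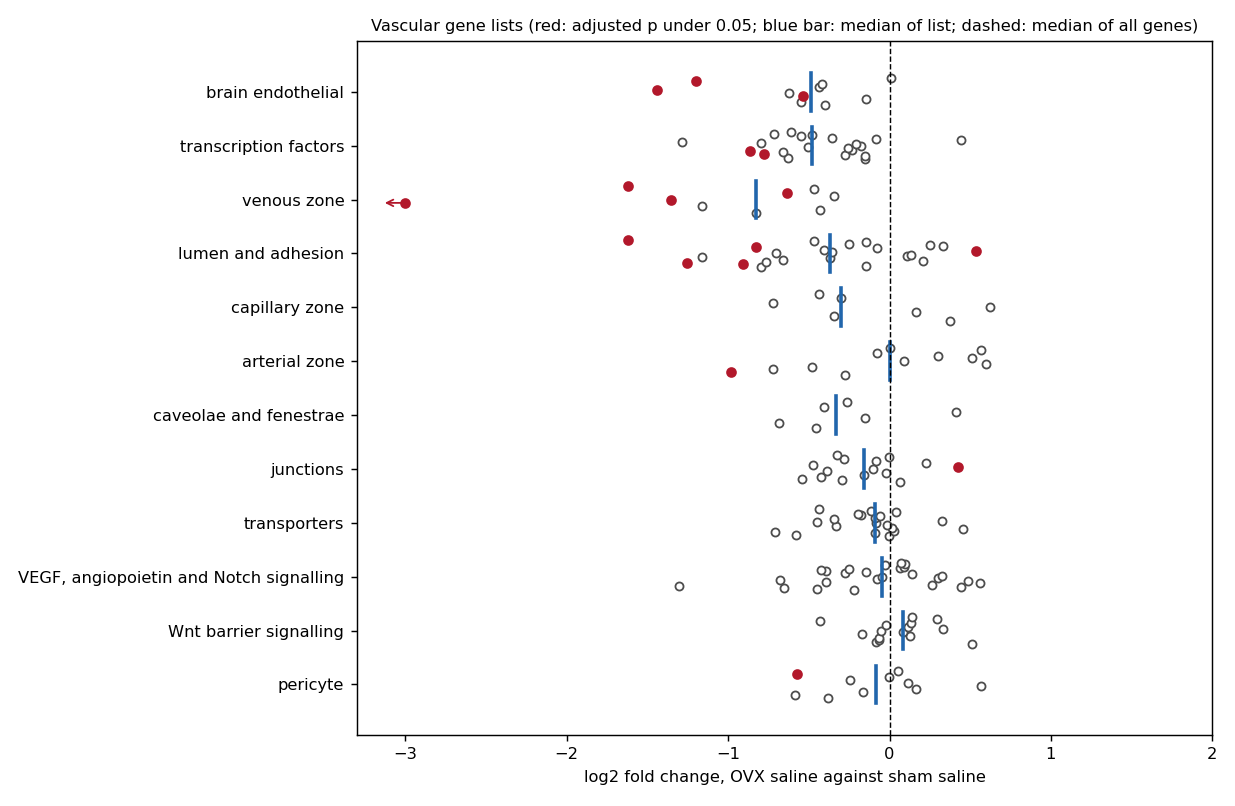
Log2 fold changes (x axis) in OVX saline against sham saline for the genes of 12 vascular lists (rows). Red points passed at an adjusted p under 0.05, blue bars are list medians, and the dashed line is the median of all genes (0.005). An arrow marks Lcn2, drawn at -3 although its value is -7.79. The venous median is at -0.83 and that of Wnt barrier signalling at 0.08.

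Xmo in sham-operated mice was read by setting sham Xmo against sham saline, which shares the 3 sham saline libraries with the comparison above. Flt1 fell and the other 9 genes did not pass, where 1.51% of all genes tested passed in either direction and 0.791% as lower. Flt1 had 36.5, 31.8, 33.2 and 34.6 CPM in sham Xmo, against 51.7, 40.2 and 57.2 CPM in sham saline, without overlap. Flt1, Cldn5 and Abcb1a had every sham Xmo library below every sham saline library, as had 5.33% of all genes tested. The log2 fold change of Flt1 was -0.55 (SE 0.12, adjusted p = 0.0418, edgeR), past the test in 12 of 21 settings. It was lost without OVX saline 2, sham Xmo 2, 3 or 4, or sham saline 1 or 3 (adjusted p = 0.0534 to 0.188).

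Sox17 had 4.403, 3.34, 5.61 and 4.16 CPM in sham Xmo, against 5.52, 5.81 and 6.81 CPM in sham saline (log2 -0.47, adjusted p = 0.290, edgeR). Ly6c1 had 23.6, 22.6, 23.9 and 44.3 CPM in sham Xmo, against 47.7, 101.1 and 22.9 CPM in sham saline (log2 -0.998, adjusted p = 0.143). Both pairs of groups overlapped. In DESeq2, which called more genes than edgeR over all, 2 of the 10 passed. None did in edgeR without the filter on low counts (Flt1 at an adjusted p of 0.0754). The same held with only the groups compared (Flt1 at 0.176) and with the replicate block (Flt1 at 0.0816). Over the 10 genes the median log2 fold change was -0.34 against 0.026 for all genes, and 9 had a lower mean. In TPM the median gene was at 0.54 and 2 of the 10 had a lower mean, or 8 of 10 relative to that median.

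In the lists, Mcam rose again against the same sham saline libraries (log2 0.66, adjusted p = 0.0196, edgeR). Vwf (-1.24), Clec14a (-0.89), Cd93 (-0.79), Nr2f2 (-1.09) and Lcn2 fell. Nr2f2 had 10.8, 9.03, 9.84 and 11.8 CPM in sham Xmo, against 25.4, 20.7 and 19.99 CPM in sham saline. Its values were well apart, and it passed in 14 of 21 settings (adjusted p = 0.0256 with all libraries). It was lost without sham Xmo 2, 3 or 4, or sham saline 1 or 3 (adjusted p = 0.0535 to 0.0986). Without sham saline 2, Vwf, Clec14a, Cd93 and Lcn2 did not pass (adjusted p = 0.0548 to 0.155). Clec14a and Vwf were also lost without sham Xmo 2, 3 or 4 or sham saline 3, Cd93 without these or sham saline 1, and Lcn2 without sham Xmo 3 or 4. Vwf and Cd93 were lost without OVX Xmo 3 or OVX saline 2 or 3 as well, and Vwf without OVX Xmo 2. Mcam was lost without sham Xmo 3 or sham saline 3 (adjusted p = 0.0604 and 0.103). With only the groups compared, Mcam, Vwf, Clec14a, Cd93, Nr2f2 and Lcn2 were all lost in edgeR (adjusted p = 0.0603 to 0.176). With the replicate block all of these but Mcam were lost (adjusted p = 0.0542 to 0.106). Without the filter on low counts, Clec14a, Cd93 and Vwf were lost (adjusted p = 0.0501 to 0.0714).

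OVX Xmo against sham saline differs in surgery and treatment at once. Among all 19969 genes tested here, 3780 had an unadjusted p under 0.05 in edgeR, and DESeq2 called more genes than edgeR over all. None of the 10 genes passed in edgeR, where 5 had an unadjusted p under 0.05 and 1.19% of all genes passed, and 1 passed in DESeq2. That gene was Ly6c1, with 21.4, 28.2, 22.4 and 21.3 CPM in OVX Xmo, against 47.7, 101.1 and 22.9 CPM in sham saline (log2 -1.29, SE 0.35, adjusted p = 0.0737 in edgeR). Sox17 had 5.75, 4.72, 5.22 and 3.58 CPM in OVX Xmo, against 5.52, 5.81 and 6.81 CPM in sham saline, and the groups overlapped (log2 -0.33, adjusted p = 0.4658). Flt1 had 34.8, 36.0, 44.7 and 41.8 CPM in OVX Xmo, also overlapping sham saline (log2 -0.34, adjusted p = 0.159). Pecam1 and Abcb1a lay below all sham saline libraries, as did 6.28% of all genes tested, but did not pass (log2 -0.47 and -0.36, adjusted p = 0.116 and 0.125). By ratio of means 8 of the 10 were lower in TMM-scaled CPM, 7 in unscaled CPM and 1 in TPM, where Pecam1 was at 0.18 and Abcb1a at 0.29. Relative to the median gene, at 0.01, 0.32 and 0.60, 8 of 10 were lower on each scale. In the lists, Clec14a (-1.12), Cd93 (-0.77) and Lcn2 fell (adjusted p = 0.0316, 0.0488 and 0.0316, edgeR), and without sham saline 2 none of these 3 passed (adjusted p = 0.135 to 0.228). All 3 were also lost without OVX Xmo 1, 2 or 3, OVX saline 2 or 3, sham Xmo 2 or sham saline 3. Lcn2 was lost without OVX saline 1 too, and Cd93 without OVX saline 1 or 4, sham Xmo 3 or 4, or sham saline 1. Cd93 was also lost without the filter and with the mitochondrial genes left out (adjusted p = 0.0823 and 0.0502). With only the groups compared, Clec14a, Cd93 and Lcn2 were all lost (adjusted p = 0.186 each). The replicate block ended these 3 calls too (adjusted p up to 0.121).

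Xmo after ovariectomy was read by setting OVX Xmo against OVX saline. None of the 10 genes passed in edgeR (1 at an unadjusted p under 0.05) or in DESeq2, and 0% of all genes tested passed in edgeR. Sox17 had 5.75, 4.72, 5.22 and 3.58 CPM in OVX Xmo, against 3.66, 2.14, 2.73 and 1.95 CPM in OVX saline. The ranges met only in OVX Xmo 4 and OVX saline 1. The log2 fold change was 0.87 (SE 0.22), with an unadjusted p of 0.00116 and an adjusted p of 0.998 from edgeR, so it fails the correction. Of the 19969 genes, 834 had an unadjusted p under 0.05.

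Flt1 had 34.8, 36.0, 44.7 and 41.8 CPM in OVX Xmo, against 31.7, 33.9, 39.0 and 32.5 CPM in OVX saline (log2 0.20, SE 0.12). Ly6c1 was at 0.15 (SE 0.33). Of the 10 genes, 9 had a higher mean in OVX Xmo, with a median log2 fold change of 0.16 against 0.003 for all genes, and none was without overlap, where 3.11% of all genes were. The median gene moved by under 0.1 between scales here, and 9 of 10 were higher on each of the 3. No gene of the vascular lists passed in edgeR or DESeq2, with 1 transcription factor, 1 capillary and 1 venous gene at an unadjusted p under 0.05. Nr2f2 had the smallest p, with 12.4, 16.9, 16.2 and 16.4 CPM in OVX Xmo, against 7.79, 5.06, 10.6 and 11.02 CPM in OVX saline (log2 0.85, unadjusted p = 0.000702, adjusted p = 0.998, edgeR). For Nr2f2 every OVX Xmo library was above every OVX saline library.

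Surgery under Xmo was read by setting OVX Xmo against sham Xmo, a comparison without sham saline. None of the 10 genes passed in edgeR (2 at an unadjusted p under 0.05) or in DESeq2, where 0.01% of all genes passed in edgeR. Among all 19969 genes tested, 2027 had an unadjusted p under 0.05 in edgeR. Slco1a4 had 45.3, 51.3, 51.5 and 57.8 CPM in OVX Xmo, against 87.0, 60.1, 58.0 and 60.3 CPM in sham Xmo, and the groups did not overlap, as in 2.99% of all genes tested in this direction (log2 -0.37, SE 0.14, adjusted p = 0.396). Cldn5 had 11.9, 12.3, 13.3 and 9.70 CPM in OVX Xmo, against 8.54, 10.4, 8.87 and 10.4 CPM in sham Xmo (log2 0.30, SE 0.13, adjusted p = 0.443). Neither gene passed after adjustment over all genes. The fitted log2 fold changes of the 10 genes had a median of -0.008 against -0.017 for all genes, with 5 lower and 5 higher, and by ratio of means 6 were lower in TMM-scaled CPM, 5 in unscaled CPM and 3 in TPM. In the lists none passed in edgeR, and DESeq2 called 1 capillary gene. All 10 choroid plexus markers had a lower mean in OVX Xmo (median log2 fold change -2.07, 7 at an unadjusted p under 0.05, none past the test in edgeR), with summed CPM of 80.8 to 1796 in OVX Xmo and 127 to 8505 in sham Xmo. Their part in the values of the 10 genes was not tested.

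The interaction asks whether the Xmo difference was the same after ovariectomy as after the sham operation. It is the log2 difference of OVX Xmo from OVX saline minus that of sham Xmo from sham saline. None of the 10 genes passed in edgeR, where 6 had an unadjusted p under 0.05, while 2 passed in DESeq2. Of all 19969 genes tested, 0.416% passed in edgeR and 3470 had an unadjusted p under 0.05 there. DESeq2 called more genes than edgeR over all. Flt1 (0.74, SE 0.17, adjusted p = 0.0642) and Sox17 (1.34, SE 0.31, adjusted p = 0.0679) were nearest in edgeR and were the 2 that DESeq2 called (adjusted p = 0.00348 and 0.00442). Flt1 passed without sham Xmo 1 (adjusted p = 0.0480) and without sham saline 2 (adjusted p = 0.0222). Cdh5 followed (0.72, adjusted p = 0.176) and then Ly6c1 (1.15, adjusted p = 0.234). In the lists, the interaction passed in edgeR with a positive sign for Nr2f2 (1.93 on the log2 scale, adjusted p = 0.0219) and Lcn2. It passed with a negative sign for Mcam (size 0.79, adjusted p = 0.0413). These are differences between differences, so the signs do not say that any group rose or fell. Nr2f2 passed in 17 of 20 settings and was lost without OVX Xmo 4, OVX saline 1 or sham Xmo 3 (adjusted p = 0.0539 to 0.0680). Lcn2 passed in 11 and was lost without OVX Xmo 3 or 4, any OVX saline library, or sham Xmo 3 or 4. It was also lost with the replicate block (adjusted p = 0.0943). Mcam passed in 7 and was kept only without OVX Xmo 2, sham Xmo 1, sham saline 1 or sham saline 2 among the 15 libraries.

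**Figure D5:**
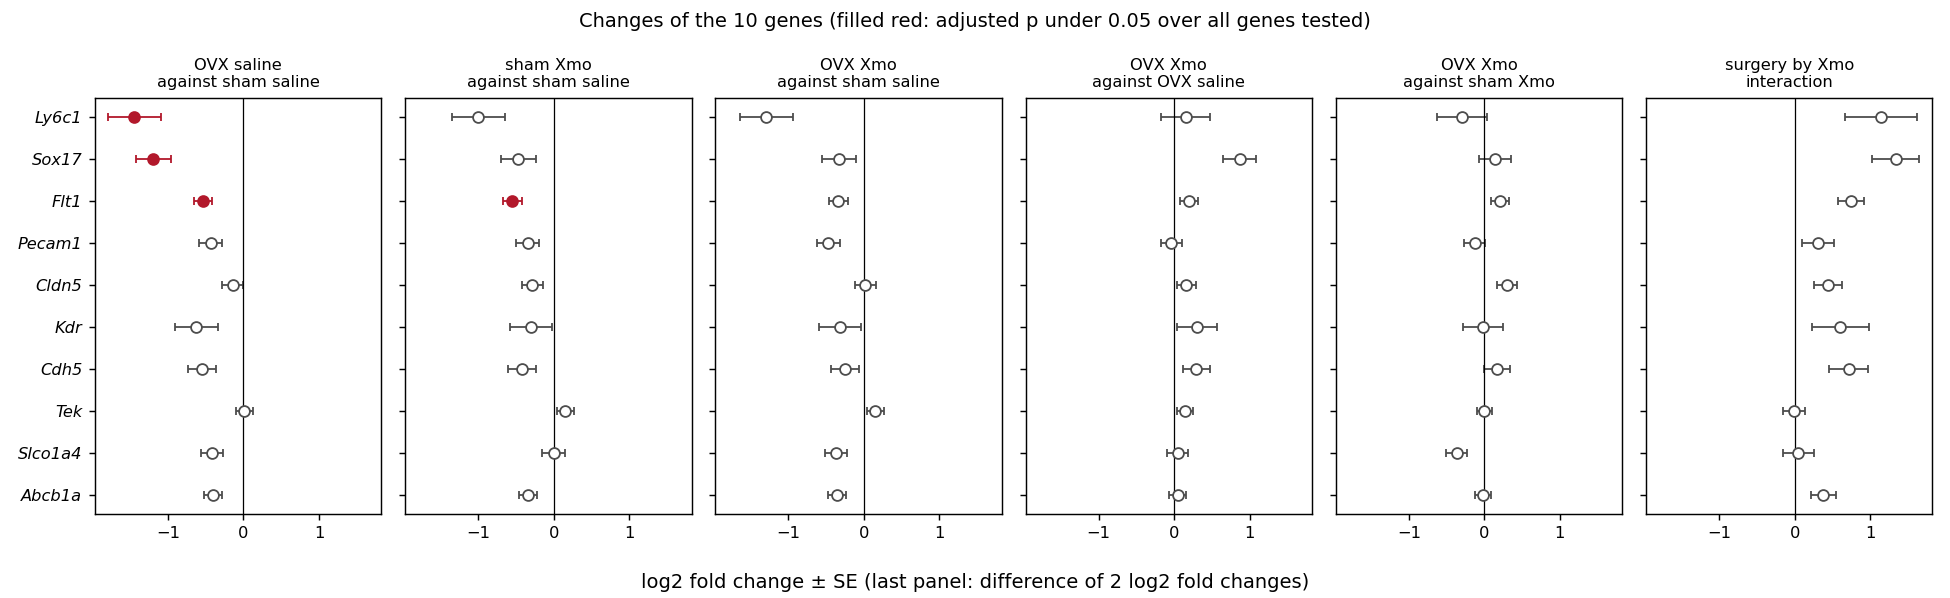
Log2 fold changes with SE (x axis) of the 10 genes (rows) in 5 comparisons, and in the last panel the interaction, a difference of 2 such changes. Filled red points have an adjusted p under 0.05 over all genes tested. Calls are Ly6c1, Sox17 and Flt1 in OVX saline and Flt1 in sham Xmo, each against sham saline.

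Within groups, the 10 genes did not vary as a block. After group means were taken off the log2 CPM, the 45 pairs had a median Pearson r of 0.009 over 15 libraries, with 23 pairs positive. Ly6c1 and Pecam1 had r = 0.83, Pecam1 and Abcb1a 0.77, and the junction genes Cldn5 and Cdh5 0.75. Kdr and Abcb1a had r = -0.83 and Kdr and Tek -0.63. The libraries of a pair share depth and composition, and sham saline 2, with the highest Ly6c1, Pecam1 and Abcb1a and the lowest Kdr, is among the points of every value, and none was computed without it. The 8 genes whose deviations were most like the mean of the 10, by Pearson r over the same 15 libraries, were Ifitm2 (0.87), Tns2 (0.87), Esam (0.87), Gm16536 (0.86), Zfp740 (0.85), Cd300a (0.84), Sbk3 (0.83) and Miip (0.82). They head a ranking of 15912 genes against a mean of genes that did not vary as a block. The top of so long a ranking is high by selection, and no p was computed.

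The miRNA libraries hold an endothelial readout of their own in miR-126a, made from an intron of the endothelial gene Egfl7. Its mature strands are shown with the seed, bases 2 to 8, in capitals. The 3p strand lies at chr2:26591402-26591423 (plus strand, GRCm38.p6), as in RefSeq, and the 5p strand is as the deposited table gives it.
miR-126a-3p: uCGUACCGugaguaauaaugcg
miR-126a-5p: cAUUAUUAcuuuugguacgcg
The strands have different seeds. miR-126a-3p had 18842, 20442 and 20753 CPM in OVX Xmo, 21385, 18514 and 22689 CPM in OVX saline, 16925, 19228 and 18358 CPM in sham Xmo, and 24620, 19794 and 20284 CPM in sham saline. These libraries are not tied by the labels to the mRNA libraries.

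Neither strand passed edgeR's test in any of 4 comparisons, in which 0 to 1 of 605 tested miRNAs passed. The share that passed was 0.165% in OVX Xmo against OVX saline and 0% in the other 3. The largest difference of miR-126a-3p was that of sham Xmo from sham saline (log2 -0.25, SE 0.11, unadjusted p = 0.0525, adjusted p = 0.515). OVX saline differed from sham saline by -0.05 (SE 0.11), and OVX Xmo from OVX saline by -0.06 (SE 0.11). The 5p strand, far less abundant, had 388, 443 and 578 CPM in OVX Xmo, against 303, 423 and 271 CPM in OVX saline (log2 0.50, SE 0.21, unadjusted p = 0.0384, adjusted p = 0.629). Its groups overlapped. The blood-cell miRNAs miR-451a and miR-144-3p (red cells) and miR-223-3p (myeloid cells) did not pass either.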

How the data were processed

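Gene expression was read in 15 mRNA libraries and 12 miRNA libraries of hippocampus, made with Trizol and a TruSeq kit according to the labels' protocols. The deposited gene table holds raw read counts and TPM computed by the authors, and the deposited miRNA table holds read counts. The submitters' processing notes name FastQC 0.11.2, Trimmomatic 0.36, Bowtie2 2.3.2, StringTie 1.3.3b and the build GRCm38.p6. No label, file header or note used here names the counting tool or says whether it used strand. The gene table has 12 further columns of values that match no sample label, and these were not used.

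Groups follow the labels. The gene counts were tested with edgeR 4.0.16 in R 4.3.3 (limma 3.58.1): filterByExpr, TMM scaling, 1 quasi-likelihood fit of all 15 libraries by group (11 residual degrees of freedom) and Benjamini-Hochberg adjustment over all 19969 genes tested, with a threshold of 0.05. miRNA counts were fitted alike (605 of 1387 miRNAs, 8 residual degrees of freedom). All p-values are 2-sided. The fits were tested on simulated data. Depth was 20848661 to 39140593 counts per mRNA library. The 10 genes and the gene lists were chosen with earlier results of these data known, so counts over them are descriptions. All 10 genes are named. From each list, up to 4 genes past the test with the smallest p are named, or up to 2 where none passed. Likeness to the 10 genes was ranked over 15912 genes with a mean of at least 1 CPM.

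Alternatives were RLE size factors, no filter, DESeq2 1.42.0, a fit of only the groups compared, a replicate block, mitochondrial genes left out, each library left out in turn, and other scales. Sums of Ly6c1 with Ly6c2 and of Abcb1a with Abcb1b were chosen after seeing the data. The blocked fit uses replicate numbers that the labels do not tie to shared animals or days. Outlying libraries were sought with Dixon's ratio in groups of 4.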

Additional observations from a re-analysis of the deposited data

Results flagged for a closer look

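In 3 of the 30 groups of 4 libraries tested, 1 library of a member lay far from the other 3 by Dixon's ratio, where chance gives about 1 in 20 groups. Ly6c1 had 28.2 CPM in OVX Xmo 2, while the other OVX Xmo libraries had 21.3 to 22.4 CPM. Ly6c1 had 44.3 CPM in sham Xmo 4, while the other sham Xmo libraries had 22.6 to 23.9 CPM. In summed CPM, sham Xmo 4 also had 8505 for choroid plexus markers, 4921 for red cell markers and 7.30 for neutrophil and monocyte markers, and the other sham Xmo libraries had 127 to 2022, 504 to 778 and 1.32 to 3.35. The part of these cells in its Ly6c1 level was not tested. Slco1a4 had 87.0 CPM in sham Xmo 1, while the other sham Xmo libraries had 58.0 to 60.3 CPM.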

How the results depend on the processing

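The 3 members called in OVX saline against sham saline were 6 in DESeq2 and 1 with the replicate block, and 1 to 4 as single libraries were left out. The single call in sham Xmo against sham saline was 2 in DESeq2, and 0 without the filter, with only the groups compared or with the replicate block, and 0 to 1 without single libraries. The 0 calls in OVX Xmo against sham saline were 1 in DESeq2. The 0 interaction calls were 2 in DESeq2 and 0 to 1 without single libraries. Endothelial miRNAs had 0 calls under every alternative run.

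Over all genes, the counts in OVX saline, sham Xmo and OVX Xmo against sham saline were 1246, 302 and 237 in edgeR, 2342, 1138 and 1127 in DESeq2, 568, 108 and 56 without the filter, and 178, 37 and 2 with the replicate block. With only the groups compared, sham Xmo and OVX Xmo against sham saline had 6 and 4. The interaction had 83 calls in edgeR, 845 in DESeq2, 20 without the filter and 11 with the block. OVX Xmo against OVX saline had 0 in edgeR, 2 in DESeq2 and 1 with only the groups compared, and OVX Xmo against sham Xmo had 2, 74 and 0. Of 21 pairs of libraries with the same number, 2 had deviations correlated above 0.1 (-0.215 to 0.186), so the numbers were not taken as pairs.

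Some signs changed. Tek in OVX saline against sham saline was -0.00394 with RLE, and its interaction 0.00735 with RLE and 0.00421 in DESeq2. With the replicate block, Tek in OVX Xmo against sham Xmo was -0.0018, Kdr 0.00221, and Slco1a4 in sham Xmo against sham saline 0.0034 (0.0130 without the filter). In OVX saline against sham saline, TPM turned Flt1 to 0.0442, Pecam1 to 0.19, Cdh5 to 0.07, Slco1a4 to 0.40, Abcb1a to 0.26 and Cldn5 to 0.46.

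Without single libraries, OVX saline against sham saline ranged over -0.0855 to 0.0940 for Tek, -0.109 to 0.0710 for miR-126a-3p and -0.307 to 0.0399 for miR-126a-5p. Sham Xmo against sham saline ranged over -0.160 to 0.139 for Slco1a4, -0.650 to 0.0211 for Kdr and -0.296 to 0.175 for miR-451a. OVX Xmo against sham saline ranged over -0.0634 to 0.102 for Cldn5 and -0.662 to 0.00443 for Kdr. OVX Xmo against OVX saline ranged over -0.0120 to 0.104 for Slco1a4, -0.101 to 0.000934 for Pecam1, -0.137 to 0.0192 for miR-126a-3p, -0.288 to 0.205 for miR-451a and -0.0442 to 0.611 for miR-144-3p. OVX Xmo against sham Xmo ranged over -0.131 to 0.160 for Kdr, -0.0689 to 0.0461 for Tek, -0.0477 to 0.00292 for Abcb1a, -0.000201 to 0.261 for Ly6c2, -0.0561 to 0.218 for miR-144-3p and -0.139 to 0.139 for miR-126a-5p. The interaction ranged over -0.0908 to 0.0869 for Tek and -0.0886 to 0.208 for Slco1a4. Of the 8 genes most like the members, 4 remained with Spearman correlation and 1 without taking off group means. The cause of these changes was not tested, and 3 sham saline libraries limit every comparison against them.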
